A study of Danio rerio with 10 samples.

Results

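The blastula embryo of the zebrafish (Danio rerio) was set against the 2 gametes that give rise to it, gene by gene. The blastula was represented by the 1000-cell library and the library of the sphere stage, a blastula stage that follows it, and the gametes by the sperm library and the oocyte library. These 4 libraries belong to a series of 10, with 1 library per stage, in which 6 earlier embryo libraries run from the 1-cell to the 256-cell stage. Of 32574 genes in the table, 12922 reached 5 RPKM in at least 1 of the 4 libraries, and these were sorted by whether both blastula libraries lay above both gametes, below both gametes, nearer sperm or nearer the oocyte. RPKM are read counts scaled by gene length and by the size of the library, so levels of different genes are comparable per length. The labels describe the embryos and gametes by stage or cell alone and record no treatment. For the fish themselves the labels name no strain, genotype or age, and they do not say how many animals or embryos were pooled.

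Early zebrafish embryos run on transcripts and proteins that the mother stored in the egg. Transcription from the embryo's own genome begins in earnest around the midblastula transition, close to the 1000-cell stage, and stored transcripts are cleared while new ones appear. Libraries made with poly(A) selection, the usual form of the kit named in the labels, also record the lengthening of poly(A) tails on stored transcripts, so a higher level before genome activation need not mean new transcription. Sperm carry little RNA, and a preparation of sperm can bring RNA of other testis cells with it.

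Values had been scaled to 71051833 reads in the 1000-cell, 80204068 in the sphere, 39600592 in the sperm and 54662927 in the oocyte library. With 1 library per stage there was no replicate check and no test, so differences are given as values, and every interval covers counting error only. A level of 3 reads in a gene of 1 kilobase, the floor used here, equals 0.0422 RPKM in the 1000-cell, 0.0374 in the sphere, 0.0758 in the sperm and 0.0549 in the oocyte library. In such bulk samples fewer cells of a type and less RNA per cell cannot be told apart.

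The labels were set against defining genes of each cell type. Of 10 matched blastula genes, such as the mesoderm gene tbx16, 10 reached 5 RPKM in the sphere library, 1 in the 1000-cell, 3 in the sperm and 1 in the oocyte library. Of 11 matched oocyte genes 10 reached 5 RPKM in the 1000-cell, the sphere and the oocyte library alike, against 3 in sperm. Of 12 matched genes of sperm and the testis germ line 1 did so in each blastula library, 11 in sperm and 0 in the oocyte.

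The sperm library also held genes of other cells. All 7 genes of somatic testis cells were at 13.2 to 430 RPKM in it, and their sum was 0.2193 RPKM in the 1000-cell, 0.8358 in the sphere, 1240 in the sperm and 0.4587 in the oocyte library. All 5 matched pancreas genes were at 51.7 to 483 RPKM in sperm, with sums of 0.2009, 0.1382, 1428 and 0.5055 RPKM in the same order of libraries. Of 8 matched genes of skin or follicle epithelium, 1 reached 5 RPKM in the 1000-cell, 4 in the sphere, 6 in the sperm and 7 in the oocyte library. The 1 matched blood gene was at 0 in the 1000-cell, sperm and oocyte libraries, and the 2 matched muscle genes stayed at or under 1.11 RPKM in each. The part of such other cells in the comparisons below was not tested.

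Both blastula libraries exceeded both gametes for 4276 of the 12922 genes (33.1%) and lay below both for 1923 (14.9%). Of the genes in neither class, 3394 (26.3%) had both blastula libraries nearer the oocyte and 2028 (15.7%) nearer sperm. A single blastula library could still lie beyond both gametes there. Of the 3394 genes, 223 lay above and 387 below both gametes in the 1000-cell library. Of the 2028, 220 lay above and 170 below both in the sphere library. The remaining 1301 genes (10.1%) were split, with the 1000-cell and sphere libraries not both nearer the same gamete. Above both was thus the most numerous class as sorted, but with a 2-fold margin required 2002 genes lay above both and 2292 nearer the oocyte, and without a filter on level 6449 and 9333. A margin of 4-fold, a difference of 2 on the scale of log2(RPKM + 1), was reached above both gametes by 593 genes (4.59%) and below both by 160 (1.24%). The sphere library taken alone stood 4-fold above both gametes for 973 genes.

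Over the sorted genes, the levels of the blastula libraries correlated more closely with the oocyte than with sperm. Across the 12922 genes, which are not independent replicates, Pearson's r of the log2 levels was 0.70 between 1000-cell and oocyte and 0.64 between sphere and oocyte, against 0.23 and 0.22 with sperm. Between the sphere and 1000-cell libraries it was 0.91, and between sperm and oocyte 0.31. Genes that passed the filter through sperm alone are among those compared. By the filter they lay under 5 RPKM in the oocyte and in both blastula libraries. Their part in these values was not tested, so the values do not show that most genes lay nearer the oocyte. The 1000-cell library was 4-fold higher than sperm for 2188 genes and 4-fold lower for 3194. Against the oocyte it was 4-fold higher for 3156 genes and 4-fold lower for 594. The sphere library was 4-fold higher than sperm for 2112 genes and lower for 3047, and 4-fold higher than the oocyte for 3388 and lower for 819. All of these share the same gamete libraries.

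The scale of the libraries sets part of these counts. The median log2 difference over all sorted genes was 0.11 for 1000-cell minus sperm, 0.55 for 1000-cell minus oocyte, 0.07 for sphere minus sperm and 0.63 for sphere minus oocyte. Scaling the 4 libraries to a common median ratio put these medians at 0.55, 0.00, 0.48 and 0.00, and scaling to equal RPKM totals at 0.46, 0.77, 0.42 and 0.84. Over the same 12922 genes the class above both gametes then held 3705 genes under median ratios and 5056 under equal totals, and the class below both 2549 and 1578.

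**Figure D1:**
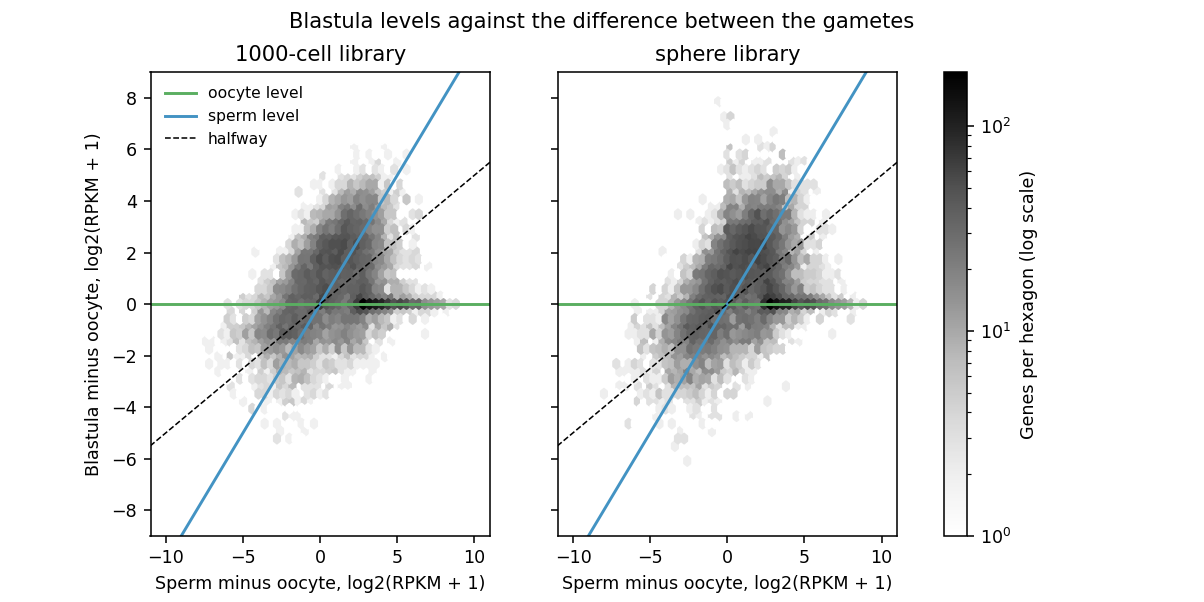
Each panel plots the level of 1 blastula library minus the oocyte level (vertical axis, log2(RPKM + 1)) against the sperm level minus the oocyte level (horizontal axis, same unit) for the 12922 sorted genes, with darker hexagons holding more genes on a log scale. The dense band on the green line at the right is made of genes high in sperm whose blastula level was the oocyte level, and the cloud above both coloured lines holds the genes above both gametes.

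The 15 genes named for the widest margin above both gametes were at 19.9 RPKM or more in both blastula libraries, against at most 6.72 in sperm and 11.6 in the oocyte. The gene trim35-29, of the TRIM family, stood at 90.7 RPKM in the 1000-cell and 45.2 in the sphere library, against 0.566 in sperm and 0.176 in the oocyte. Its smallest fold was sphere over sperm, 79.9-fold with a 95% counting interval of 59.0 to 111. IGF2BP3, an RNA-binding protein that steadies maternal mRNA in zebrafish, stood at 84.9 and 93.6 RPKM in 1000-cell and sphere, against 0.340 in sperm and 2.99 in the oocyte. These genes were named for their margin, so both blastula libraries lie clear of both gametes by selection. The gametes were at or near the low end of the scale.

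Several of these genes act in chromatin and signalling. CHD8, a chromatin remodeller, stood at 79.2 and 91.8 RPKM in 1000-cell and sphere, against 4.70 in sperm and 1.77 in the oocyte (16.8-fold over sperm at the 1000-cell stage, 16.0 to 17.7). BCL9, a coactivator of beta-catenin in the Wnt pathway, stood at 66.5 and 65.3 RPKM, against 3.94 in sperm and 1.11 in the oocyte. The forkhead factor foxo3a stood at 31.9 and 31.6 RPKM, against 0.572 in sperm and 0.421 in the oocyte. For these 3 genes the blastula libraries were nearly level with each other. MAP2K7, a kinase that activates JNK, stood at 51.4 and 54.8 RPKM against 2.3 and 0.479, and SULF1, an enzyme that edits heparan sulfate, at 29.2 and 23.8 against 0.828 and 0.636 in sperm and oocyte. The acid phosphatase ACP5 was the most abundant of the 15 named, at 370 and 314 RPKM in 1000-cell and sphere, against 0.870 in sperm and 11.6 in the oocyte. Among the others were the class I myosin gene myo1eb, the homeobox gene homeza and the helicase-like gene mcm3l, and ches1 was the lowest, at 19.9 RPKM in 1000-cell and 20.4 in sphere, against 0.339 and 0.466.

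**Figure D2:**
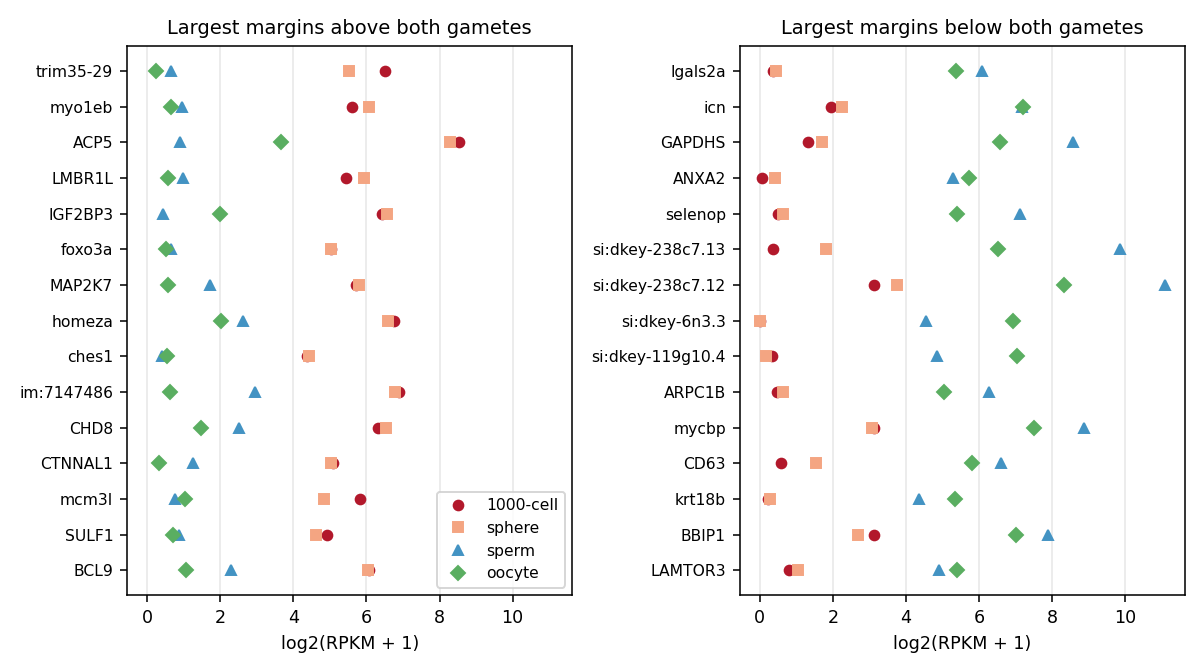
Points give the level of each gene in log2(RPKM + 1) in the 1000-cell, sphere, sperm and oocyte libraries (1 library each) for the 15 named genes with the largest margin above both gametes (left) and below both (right). In every row the blastula points lie clear of both gamete points, because the genes were chosen for that margin.

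Most genes above both gametes at the blastula had reached that position, by any margin, during cleavage. The cleavage libraries were not used in the sorting, but they are set against the same gamete values. Of the 4276 genes, 722 (16.9%) already lay above both gametes in the 1-cell library, 2041 (47.7%) in the 4-cell, 3659 (85.6%) in the 16-cell and 3982 (93.1%) in the 256-cell library. Their median level was 2.80 RPKM at the 1-cell stage, 18.2 at the 16-cell stage, 22.9 at the 1000-cell stage and 21.7 at sphere, against 6.39 in sperm and 3.38 in the oocyte. They took 40.4% of the RPKM total of the 1000-cell library and 41.0% of that of sphere, against 9.53% in sperm and 9.07% in the oocyte. In the 64-cell library 3417 (79.9%) lay above both gametes, with a median of 15.7 RPKM. By 4-fold, 562 of the 4276 genes lay above both at the 16-cell stage and 469 at the 64-cell stage. The source of these levels was not tested. Of the 593 genes with a 4-fold margin, 580 lay above both gametes at the 16-cell stage and 367 did so by 4-fold. Among the 593, 23 were listed at 0 in the oocyte while the 1-cell library held 5 RPKM or more. Of the 4276 genes above both 54 were so listed, and of all 12922 sorted genes 76. For these genes the margin over the oocyte rests on a value that the 1-cell library does not share.

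The named genes followed the same course. IGF2BP3 stood at 2.18 RPKM in the 1-cell library, 7.90 in the 4-cell, 46.3 in the 16-cell, 30 in the 64-cell, 40.4 in the 128-cell and 61.3 in the 256-cell library. The gene trim35-29 stood at 0.424, 2.90, 14.0, 17.1, 37.2 and 47.0 RPKM in the same libraries. CHD8 had reached 52.7 RPKM at the 16-cell stage and stood at 54.4 in the 64-cell, 60.6 in the 128-cell and 61 in the 256-cell library.

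Over the same stages fewer genes of the embryo lay below both gametes by any margin, but not steadily fewer by 4-fold. By 4-fold, 200 genes lay below both in the 1-cell library, 135 in the 16-cell, 224 in the 64-cell and 208 in the sphere library. Of all sorted genes 53.5% lay below both gametes in the 1-cell library, 30.2% in the 4-cell, 18.1% in the 16-cell and 18.8% in the sphere library. The share above both was 14.2% in the 1-cell library, 23.2% in the 4-cell, 35.4% in the 16-cell, 32.2% in the 64-cell and 37.1% in the sphere library. The share nearer sperm was 5.0% in the 1-cell and 17.2% in the sphere library. The 16-cell library thus held more genes above both gametes, and fewer below both, than the 64-cell library that follows it.

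**Figure D3:**
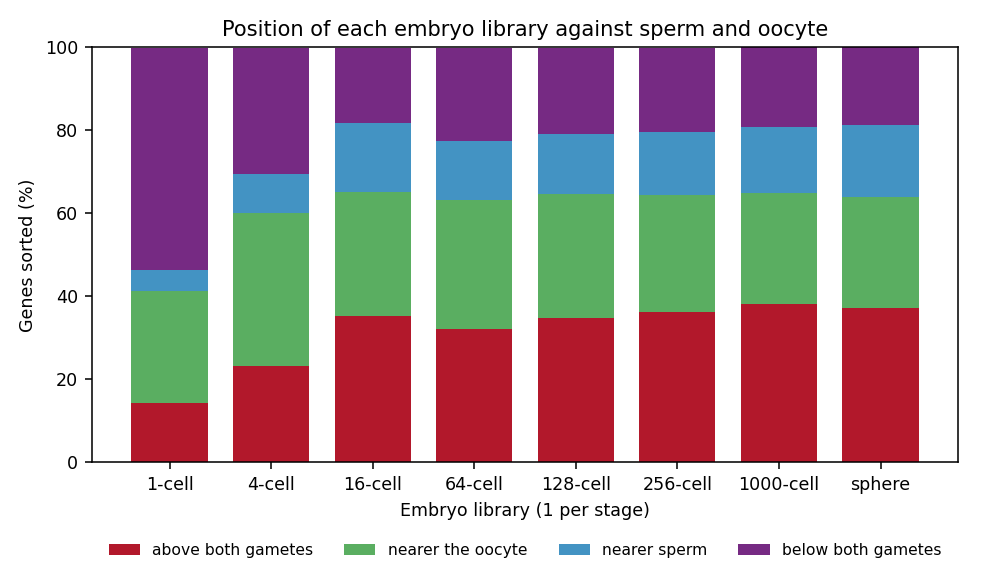
Stacked bars give the percent of the 12922 sorted genes that lay above both gametes, nearer the oocyte, nearer sperm or below both gametes in each of the 8 embryo libraries taken alone (genes level with both are left out of the bars). By any margin, the share below both gametes is 53.5% in the 1-cell library and 18.8% at sphere, and the share above both is 14.2% and 37.1%. By 4-fold, 200 genes lie below both in the 1-cell library and 208 at sphere.

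Genes of the classes also differed in length, which the sorting did not use. The median length recovered from the values was 2411 bases for genes above both gametes and 1531 bases for genes below both, against 2032 bases for all sorted genes. It was 2642 bases for the 593 genes 4-fold above and 1501 bases for the 160 genes 4-fold below. It was 1847 bases for genes nearer the oocyte and 2070 bases for genes nearer sperm. Whether length bears on the sorting was not tested.

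The genes 4-fold below both gametes were cut into 2 groups by whether the 1-cell library was also 4-fold below both. By any margin, 116 of the 160 already lay below both gametes in the 1-cell library. In 68 of the 160 genes (42.5%) the 1-cell library was already 4-fold below both gametes. Their median level was 0.0416 RPKM at the 1-cell stage, 0.159 at 1000-cell and 0.222 at sphere, against 17.8 in sperm and 11.9 in the oocyte. In the other 92 genes (57.5%) the median was 40.4 RPKM in the 1-cell library, 20.4 in the 4-cell, 14.6 in the 16-cell, 5.37 in the 64-cell, 3.69 in the 1000-cell and 4.03 in the sphere library, against 49.9 in sperm and 50.0 in the oocyte. With the egg represented by the 1-cell library, 1133 genes lay below both and 67 did so by 4-fold.

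Most of the 15 genes named for the widest margin below both gametes were low in the 1-cell library too. ANXA2, a membrane-binding annexin of epithelia, stood at 0.0429 RPKM in 1000-cell and 0.327 in sphere, against 38.0 in sperm and 51.8 in the oocyte, and was at 0 in the 1-cell library. The keratin krt18b stood at 0.179 and 0.211 RPKM, against 19.6 in sperm and 39.8 in the oocyte, and the skin calcium-binding gene icn at 2.83 and 3.79 RPKM, against 144 and 145. These genes were named for the margin by which both gametes lay above both blastula libraries. The next 4 genes were chosen after their values were seen: cd74a, an MHC class II chaperone, c1qb of the complement system, the lysozyme gene lygl1 and srgn, a granule proteoglycan of blood cells. The gene cd74a stood at 0.0442 RPKM in 1000-cell and 0.441 in sphere, against 120 in sperm and 19.9 in the oocyte, and srgn at 0.0144 and 0.114, against 167 and 13.2. The 1-cell library held 0 and 0.0135 RPKM of them. The gene c1qb stood at 0 and 0.0398 RPKM against 10.5 and 26.4, with 0 at the 1-cell stage. For lygl1 the values were 0.0537 and 0.0952 RPKM against 11.6 and 11.1, with 1.35 at the 1-cell stage. These 4 do not stand for blood genes at large: of 10 genes in a separate blood list 8 were under the filter of 5 RPKM. Among the others of the 15, the selenium carrier gene selenop stood at 0.407 and 0.552 RPKM, against 139 in sperm and 40.7 in the oocyte, and ARPC1B, of the actin-branching Arp2/3 complex, at 0.397 and 0.564, against 76.6 and 32.1. GAPDHS, a glycolytic dehydrogenase of sperm in mammals, stood at 1.51 and 2.23 RPKM, against 376 in sperm and 94.6 in the oocyte. Of the 15 named genes, 11 no longer lay below both gametes once the 1-cell library stood for the egg.

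Other genes were present in the 1-cell library and low after cleavage. LAMTOR3, of the complex that anchors mTORC1 to lysosomes, stood at 0.733 RPKM in 1000-cell and 1.05 in sphere, against 29.2 in sperm and 40.9 in the oocyte, with 36.9 in the 1-cell and 3.65 in the 4-cell library. BBIP1, a subunit of the BBSome of cilia, stood at 7.72 and 5.43 RPKM, against 235 in sperm and 128 in the oocyte, with 173 at the 1-cell stage. The Myc-binding gene mycbp stood at 7.77 and 7.36 RPKM, against 467 and 179, with 147 at the 1-cell and 34.2 at the 16-cell stage. For these 3 genes the 1-cell library was near the oocyte, and the blastula lay far under both gametes by selection. The checkpoint gene BUB3 stood at 2.13 RPKM in 1000-cell and 8.50 in sphere, against 107 in sperm and 485 in the oocyte, with 484 at the 1-cell stage.

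Genes that differed between the gametes were sorted by which gamete both blastula libraries lay nearer. Of 4893 genes at least 4-fold higher in sperm than in the oocyte, 2074 (42.4%) had both blastula libraries nearer the oocyte and 1003 (20.5%) nearer sperm. A further 702 (14.3%) lay above both gametes and 704 (14.4%) below both. Of 1559 genes at least 4-fold higher in the oocyte, 737 (47.3%) were nearer the oocyte and 298 (19.1%) nearer sperm. Under median ratio scaling, which also redraws both sets, 1039 genes higher in sperm were nearer the oocyte and 305 nearer sperm, and 1319 genes higher in the oocyte were nearer it and 1108 nearer sperm. Among the 6470 genes whose gametes lay within 4-fold, 3361 (51.9%) stood above both. Much of the likeness to the oocyte was a shared absence of sperm transcripts: of the 2074 genes, 1126 (54.3%) were under 1 RPKM in the oocyte and in both blastula libraries. These 1126 genes passed the filter of 5 RPKM through sperm alone and could not lie nearer sperm. Their count is thus no measure of likeness to the oocyte. The 737 genes higher in the oocyte and nearer it had medians of 54.3 RPKM in 1000-cell and 42.5 in sphere, against 5.59 in sperm and 83.4 in the oocyte.

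Later embryo libraries lay nearer the sperm level than the 1-cell library did, in both sets of genes. On a scale with 0 at the oocyte and 1 at the sperm level, the median position of the 4893 genes higher in sperm was -0.05 in the 1-cell library, 0.23 in the 16-cell, 0.11 in the 64-cell, 0.24 in the 1000-cell and 0.31 in the sphere library. For the 1559 genes higher in the oocyte it was 0.04, 0.27, 0.16, 0.28 and 0.38 in the same libraries. Past the halfway point toward sperm were 1.7% of the genes higher in sperm at the 1-cell stage and 40.3% at sphere, and 6.8% and 37.7% of the genes higher in the oocyte. Genes beyond the sperm level are counted there. In both blastula libraries 702 of the 4893 genes lay above both gametes, and 93 of the 1559 below both. Positions under another scaling were not worked out. The quartiles at sphere were 0.01 and 0.83 for genes higher in sperm, so single genes ranged over the whole interval.

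The genes named by rule among the 1003 that were higher in sperm and nearer sperm in the blastula were RACGAP1, MCM5, CENPI, POLB, cxxc1b, CUL3, MGAT2 and brwd1. RACGAP1, which organises the cleavage furrow, stood at 118 RPKM in 1000-cell and 97.4 in sphere, against 99.3 in sperm and 1.07 in the oocyte. MCM5, a subunit of the replicative helicase, stood at 86.2 and 101 RPKM, against 87.0 in sperm and 2.57 in the oocyte, and CENPI, of the kinetochore, at 33.3 and 42.2, against 34.0 and 0.656. The blastula and sperm levels were within 1.24-fold of each other for these genes, and the oocyte stood apart. The genes were named for lying near sperm and far from the oocyte, so both traits follow from selection. POLB, the DNA polymerase of base excision repair, stood at 42.9 and 37.6 RPKM against 58.7 in sperm and 0.610 in the oocyte, and cxxc1b, a CpG-binding subunit of the Set1 histone methyltransferase complex, at 67.1 and 33.0 against 35.6 and 1.1. Of the 1003 genes 817 (81.5%) were at 5 RPKM or more in both blastula libraries, beside 8284 of all 12922 sorted genes.

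The 298 genes of the opposite kind, higher in the oocyte and nearer sperm in the blastula, lay between the gametes in their medians. These were 16.3 RPKM in 1000-cell and 12.2 in sphere, against 8.27 in sperm and 85.4 in the oocyte. Of the 298 genes 211 (70.8%) were at 5 RPKM or more in both blastula libraries. That share is near the one over all sorted genes, 8284 of 12922. The genes named by rule had lower blastula levels than that. The gene NIN, coding for the centrosome protein ninein, stood at 2.93 RPKM in 1000-cell and 2.36 in sphere, against 1.78 in sperm and 99.5 in the oocyte, with 63.1 in the 1-cell and 6.71 in the 16-cell library. LIPG, a lipase, stood at 9.74 and 6.05 RPKM, against 3.43 in sperm and 245 in the oocyte. In both the oocyte stood far above the blastula and sperm, by selection.

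On the oocyte side, the genes named by rule were chosen for lying near the oocyte and far from sperm. They included some at nearly the same level in oocyte and blastula. The gene kdf1a, needed for epidermal differentiation in mouse, stood at 74.5 RPKM in 1000-cell and 73.1 in sphere, against 0.163 in sperm and 74.7 in the oocyte. The RNA-binding gene larp6b stood at 79.0 and 59.8 RPKM against 0.328 and 82.4, and ehmt1a, a histone H3 lysine methyltransferase, at 62.3 and 62.1 against 0.449 and 84.5. Genes high in sperm and near the oocyte level in the blastula included insl3, a hormone of Leydig cells, which was at 0 in both blastula libraries, at 430 RPKM in sperm and at 0 in the oocyte, at least 9495-fold lower in 1000-cell than in sperm. The testis growth factor gsdf (312 RPKM in sperm) and the trypsin gene prss59.2 (388 RPKM) were likewise under 0.05 RPKM in the other 3 libraries. The genes insl3, gsdf and prss59.2 belong to the lists of testis somatic cells and pancreas enzymes.

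**Figure D4:**
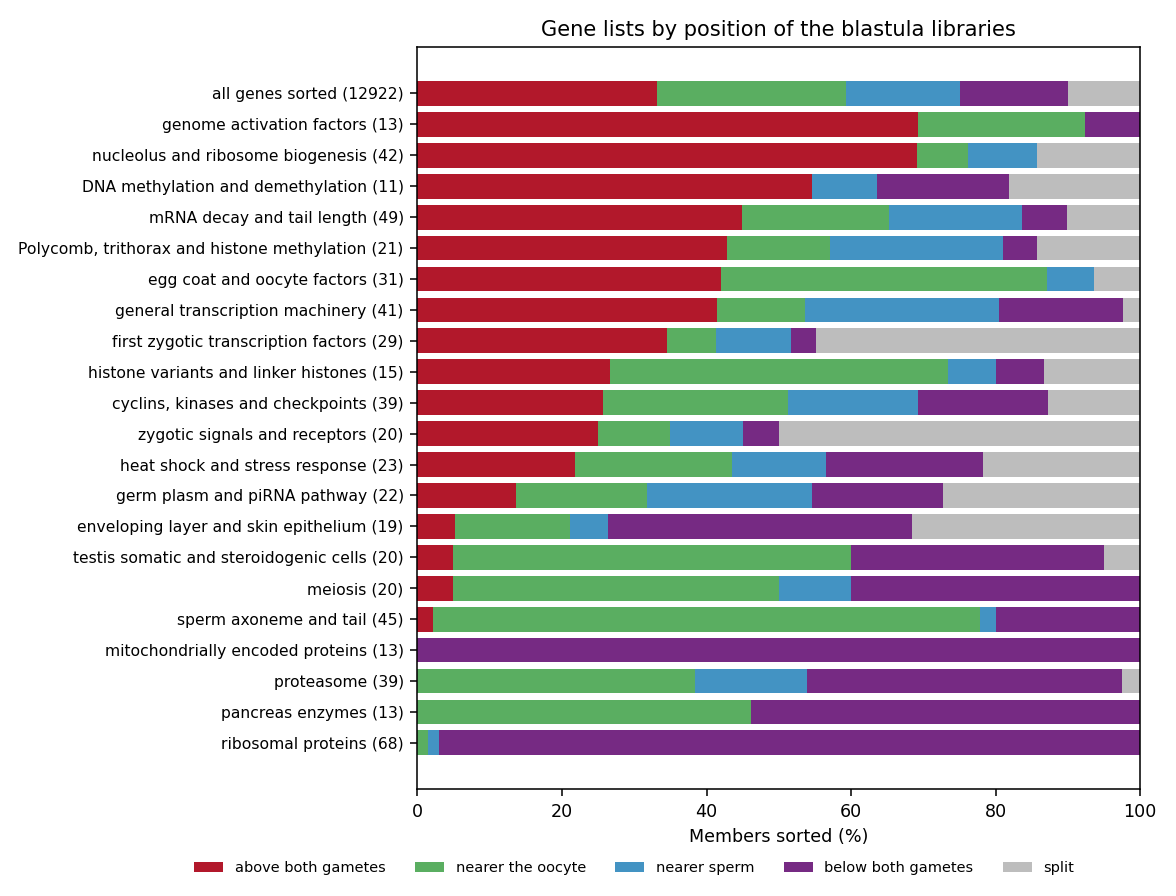
Bars give the percent of the sorted members of each gene list, their number in brackets, that lay above both gametes, nearer the oocyte, nearer sperm, below both gametes or split between the 1000-cell and sphere libraries; the top bar is all 12922 sorted genes. The ribosomal and mitochondrially encoded proteins are almost wholly below both gametes, and the nucleolar genes mostly above both.

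Further genes were read in lists by function, with members named for a 4-fold margin or, where none is stated, as examples chosen after their values were seen. Every list count is read beside the shares of all sorted genes. These were 33.1% above both gametes, 14.9% below both, 26.3% nearer the oocyte, 15.7% nearer sperm and 10.1% split. Past 4-fold they were 4.59% above both and 1.24% below both. Ribosomal proteins and the genes that assemble ribosomes stood at opposite ends. Ribosomal protein genes encode the particle itself, and nucleolar factors make and fold ribosomal RNA. Of 68 sorted ribosomal protein genes 66 lay below both gametes, beside 14.9% of all genes, and under each scaling tried 66 or 67 did. Their summed level was 6886 RPKM in 1000-cell and 7530 in sphere, against 62557 in sperm and 18030 in the oocyte. Their median log2 difference was -3.39 and -3.17 from sperm and -1.50 and -1.29 from the oocyte for 1000-cell and sphere. RPLP0, of the ribosomal stalk, was the 1 member 4-fold below both, at 51.1 and 48.1 RPKM against 1871 in sperm and 216 in the oocyte (4.24-fold under the oocyte at 1000-cell, 4.09 to 4.38). The median member stood at 207 RPKM in the 1-cell, 142 in the 16-cell, 80.0 in the 256-cell and 77.9 in the 1000-cell library.

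Of 42 nucleolar and ribosome biogenesis genes 29 lay above both gametes and 0 below both, with 27 and 32 above under median ratios and equal totals. Among all genes 33.1% lay above both. A 4-fold margin was passed by 5, beside 4.59% of all genes. They were FBL, the rRNA methyltransferase fibrillarin, at 295 and 364 RPKM in 1000-cell and sphere, against 67.9 in sperm and 58.9 in the oocyte, and RRP9, a U3 snoRNA-binding protein, at 116 and 117 against 16.4 and 16.6. The others were GAR1 of the box H/ACA particles (136 and 152 against 32.2 and 7.90 RPKM), WDR75 of the small subunit processome (93.5 and 83.2 against 14.3 and 10.6 RPKM) and pprc1, a PGC-1 related coactivator (94.8 and 112 against 6.99 and 0.783 RPKM). These 5 were named for that margin, so their blastula levels exceed both gametes by selection. The list's median was 5.05 RPKM in the 1-cell, 32.0 in the 16-cell, 39.7 in the 1000-cell and 50.0 in the sphere library, against 21.4 in sperm and 7.57 in the oocyte.

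All 13 proteins encoded by the mitochondrial genome lay below both gametes, under both other scalings as well. Their median was 742 RPKM in 1000-cell and 499 in sphere, against 1356 in sperm and 1906 in the oocyte, with 3069 at the 1-cell stage. They still held the top of the blastula lists. MT-CO1, a subunit of cytochrome c oxidase, stood at 2356 and 2709 RPKM, against 10179 in sperm and 6834 in the oocyte. The most abundant nuclear gene among the 5 leading sphere genes was hnrnpa0l, an RNA-binding protein gene, at 1326 RPKM in 1000-cell and 1810 in sphere, against 826 in sperm and 2757 in the oocyte.

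The maternal activators of the embryonic genome stood above both gametes in most cases. In zebrafish Nanog, Pou5f3 and SoxB1 factors open the genome for the first transcription. Of 13 such genes 9 lay above both, 3 nearer the oocyte and 1 below both, but under median ratio scaling 5 lay above both and 7 nearer the oocyte. Among all genes 33.1% lay above both and 26.3% nearer the oocyte. The gene nanog stood at 887 and 1109 RPKM in 1000-cell and sphere, against 23.0 in sperm and 753 in the oocyte, and pou5f3 at 367 and 419 against 0.459 and 201. The SoxB1 gene sox19b was at 361 RPKM in 1000-cell and 109 in sphere, against 12.8 in sperm and 11.2 in the oocyte. Sperm lay far under the blastula for all 3. The oocyte was close to the blastula for nanog and, like sperm, far under it for sox19b. The Nodal effector foxh1 was the other gene past 4-fold, at 58.8 and 82.6 RPKM against 0.0472 and 8.77. CTCF, which organises chromatin loops, stood at 182 and 365 RPKM against 56.2 in sperm and 1.47 in the oocyte, and CDK9, the kinase of transcription elongation, at 113 and 137 against 30.8 and 1.53.

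DNA methylation genes did not share a class. DNMT1, which copies methylation at replication, was split, at 232 RPKM in 1000-cell and 82.6 in sphere, against 27.4 in sperm and 1424 in the oocyte. The de novo enzymes DNMT3B (39.1 and 47.7 RPKM against 4.90 in sperm and 1.53 in the oocyte) and dnmt3bb.2 (28.7 and 49.2 against 4.27 and 0.902) were 4-fold above both gametes. Of the other de novo genes dnmt3bb.3 was split, at 13.6 and 11.1 RPKM against 17.9 in sperm and 9.25 in the oocyte, and dnmt3ba lay above both, at 24.1 and 29.5 against 7.23 and 21.3. Of the 11 sorted genes 6 lay above both, 2 below both, 1 nearer sperm and 2 were split, and under median ratio scaling 4 lay above both. Among all genes 33.1% lay above both and 14.9% below both. TET1, TET2 and tet3, which oxidise methylcytosine, stayed under 5 RPKM in all 4 libraries and were not sorted.

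Of 49 sorted genes of mRNA decay and tail length 22 lay above both gametes, beside 33.1% of all genes, and 19 did so under median ratio scaling. The list also holds genes that bind or steady mRNA, such as PABPC1L and IGF2BP3. Of the rest 10 were nearer the oocyte, 9 nearer sperm, 3 below both and 5 split. Those 4-fold above both were 8, beside 4.59% of all genes: PABPC1L, IGF2BP3, cnot3b, CNOT6, LSM14B, DIS3L2, PUM2 and tut4. The deadenylase CNOT6 stood at 97.5 and 104 RPKM in 1000-cell and sphere, against 9.31 in sperm and 6.09 in the oocyte, and the uridylating enzyme tut4 at 77.0 and 84.4 against 5.45 and 1.06. BTG4, which recruits the deadenylase to maternal mRNA, was nearer the oocyte, at 148 and 83 RPKM against 2.57 in sperm and 926 in the oocyte. BTG4 was thus higher in the oocyte than in the blastula, and CNOT6 and tut4 were higher in the blastula than in the oocyte.

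Egg coat and oocyte factors shared no single direction. Of 31 sorted members 13 lay above both gametes, 14 nearer the oocyte, 2 nearer sperm and 2 were split, and under median ratio scaling 5 lay above both and 19 nearer the oocyte. Among all genes 33.1% lay above both and 26.3% nearer the oocyte. The zona pellucida genes zp3d.1 (61.5 and 55.3 RPKM in 1000-cell and sphere, against 1.39 in sperm and 4.59 in the oocyte) and zp3c (49.8 and 40.3 against 0.935 and 4.91) stood 4-fold above both, as did PABPC1L, a poly(A)-binding protein gene. The claudin gene cldnd was at 817 and 413 RPKM against 0.648 in sperm and 4558 in the oocyte. The list's sum was 3661 RPKM in 1000-cell and 2318 in sphere, against 200.9 in sperm and 14592 in the oocyte, and its median level 42.9 and 36.8 RPKM, against 1.39 in sperm and 27.4 in the oocyte. The median of the members' log2 differences from the oocyte was -0.33 for 1000-cell and -0.46 for sphere, of opposite sign to the difference of the medians.

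Germ plasm and piRNA genes were spread over the classes. Of 22 germ plasm and piRNA genes 3 were above both, 4 below both, 4 nearer the oocyte, 5 nearer sperm and 6 split. Among all genes these shares were 33.1%, 14.9%, 26.3%, 15.7% and 10.1%. The germ plasm organiser buc stood at 275 RPKM in 1000-cell and 78.2 in sphere, against 5.67 in sperm and 19.1 in the oocyte. The germ cell translation factor DAZL was 4-fold below both, at 23.0 and 9.39 RPKM against 159 in sperm and 226 in the oocyte, and so was tdrkh of the piRNA pathway, at 15.3 and 9.69 against 68.4 and 139. DAZL held 279 RPKM in the 1-cell, 40.1 in the 16-cell and 43.8 in the 256-cell library.

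Most meiosis and sperm tail genes were low in the blastula. Of 20 sorted meiosis genes 6 reached 5 RPKM in the 1000-cell library and 6 in sphere, and of 45 axoneme and tail genes 6 and 6. Of the meiosis genes 9 were nearer the oocyte, 8 below both, 2 nearer sperm and 1 above both. Of the axoneme genes 34 were nearer the oocyte, 9 below both, 1 nearer sperm and 1 above both, with 26 nearer the oocyte and 17 below both under median ratio scaling. Beside both lists, 26.3% of all genes were nearer the oocyte and 14.9% below both. Members under 5 RPKM in the blastula and oocyte libraries passed the filter through sperm alone, so their classes follow in part from the filter. The median axoneme gene stood at 0.181 RPKM in 1000-cell and 0.216 in sphere, against 55.5 in sperm and 0.0868 in the oocyte. SYCP3, of the synaptonemal complex, stood at 1.2 and 0.779 RPKM against 472 in sperm and 3.44 in the oocyte. IFT57, of the trains that build cilia, was the 1 axoneme gene 4-fold below both, at 7.61 and 7.18 RPKM against 121 in sperm and 47.6 in the oocyte. The meiotic recombination gene brca2, which also repairs breaks in dividing cells, was the 1 meiosis gene above both, at 13.4 and 11.3 RPKM against 10.7 and 0.609. PSMC3IP, a cofactor of meiotic strand exchange, was nearer sperm, at 33.1 and 27.6 RPKM against 38.0 and 1.01.

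Most sorted somatic genes of the testis were highest in the sperm library, which follows in part from the filter. Of 26 matched genes 6 were under the filter. Of the 20 sorted, 3 reached 5 RPKM in the 1000-cell library and 3 in sphere. Their upper quartile in the oocyte was 1.80 in log2(RPKM + 1), under the filter level. All 13 sorted pancreas enzymes passed the filter through the sperm library alone, so they were highest there by the filter. Of 20 testis somatic and steroidogenic genes 11 were nearer the oocyte, 7 below both, 1 above both and 1 split, and of 13 pancreas enzymes 6 were nearer the oocyte and 7 below both. Among all genes 26.3% were nearer the oocyte and 14.9% below both. The summed pancreas list was 0.4132 RPKM in 1000-cell and 0.6878 in sphere, against 1845 in sperm and 1.646 in the oocyte. Its median was 0.0166 RPKM in 1000-cell, 0.0393 in sphere and 0.0600 in the oocyte, near or under the floor. Whether a pancreas enzyme was nearer the oocyte or below both thus rests on few reads. The summed testis list was 119.0 and 113.0 RPKM, against 1953 in sperm and 274.4 in the oocyte. Of its members col1a1a and COL1A2, which code for chains of type I collagen, and TAGLN, an actin-binding protein of smooth muscle, were 4-fold below both, with the oocyte at 8.44, 8.23 and 22.1 RPKM. The steroid dehydrogenase gene hsd3b2 was 4-fold above both, at 16.8 and 31.3 RPKM against 0.904 in sperm and 1.00 in the oocyte. Of 10 blood genes 2 were sorted, with CORO1A, an actin-binding protein of white blood cells, 4-fold below both (2.1 and 1.90 RPKM against 21.1 in sperm and 22.7 in the oocyte). No muscle gene reached 5 RPKM.

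A list of genes of skin epithelium and of the enveloping layer, the first epithelium of the embryo, had a higher median at sphere than at 1000-cell. Of 29 genes 19 were sorted, 3 of them through the sphere library alone. Of the 19, 8 lay below both gametes, 6 were split, 3 nearer the oocyte, 1 nearer sperm and 1 above both. None lay below both when the 1-cell library replaced the oocyte. Among all genes 14.9% lay below both and 10.1% were split. The list's median was 0.571 RPKM in 1000-cell and 10.7 in sphere, against 19.6 in sperm and 39.8 in the oocyte, with 0.0929 at the 1-cell stage. The keratin krt18a.1 stood at 0.114 RPKM in 1000-cell and 137 in sphere, against 184 in sperm and 8.30 in the oocyte. The members 4-fold below both were 6, beside 1.24% of all genes: ANXA2, icn, CD63, s100a10b, krt18b and krt91. These 6 lay far under both gametes at sphere too, so the higher median there is not shared by every member. For example, krt18b stood at 0.179 RPKM in 1000-cell and 0.211 in sphere, and icn at 2.83 and 3.79. The epidermal regulator grhl3 was the 1 member above both, at 1.11 RPKM in 1000-cell and 94.1 in sphere, against 0.870 and 0.436.

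Split genes differ between the blastula stages by their definition. Across them the sphere library was at least 4-fold higher than the 1000-cell library for 273 and at least 4-fold lower for 38, with 990 within 4-fold. The sphere library was also 4-fold higher for 122 of 4276 genes above both gametes and 42 of 2028 nearer sperm. It was so for 19 of 3394 nearer the oocyte and 6 of 1923 below both. Among all 12922 sorted genes it was 4-fold higher for 462 (3.6%) and 4-fold lower for 58 (0.4%). Among split genes the most frequent pattern, 498 genes, was nearer the oocyte at 1000-cell and nearer sperm at sphere, and 253 had it the other way round. A further 137 were nearer the oocyte at 1000-cell and above both gametes at sphere. The anchoring protein gene akap12b stood at 0.549 RPKM in 1000-cell and 242 in sphere, against 12 in sperm and 0.0781 in the oocyte. The PAK inhibitor gene inka1a stood at 0.675 and 106 RPKM against 1.85 and 0.0543, and the heat shock gene HSPB1 at 1.39 and 175 against 5.30 and 2.77. In each the sphere library alone was far above both gametes.

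Of 52 transcription factors of the first zygotic wave matched to gene IDs, 29 were sorted, and 16 of these passed the filter through the sphere library alone, so their classes follow in part from the filter. Of the 29, 13 were split, 10 above both gametes, 3 nearer sperm, 2 nearer the oocyte and 1 below both. Among all genes 10.1% were split and 33.1% above both. Over all 52 the median was 0.290 RPKM in 1000-cell and 3.60 in sphere, against 0.780 in sperm and 0.0798 in the oocyte. The factor klf17 was 4-fold above both, at 12.7 and 89.5 RPKM against 0.451 and 0.236. The Hairy-related repressor her5 stood at 3.77 and 125 RPKM against 0.207 and 0.123, and BHLHE40 at 0.0301 and 0.0400 against 11.9 and 5.18, 4-fold below both. Of 33 zygotic signals and receptors 20 were sorted, 10 of them through the sphere library alone. The median over all 33 was 0.387 RPKM in 1000-cell and 7.0 in sphere, against 1.93 in sperm and 0.147 in the oocyte, with the Nodal coreceptor tdgf1 4-fold above both (47.8 and 110 RPKM against 3.82 in sperm and 8.03 in the oocyte).

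**Figure D5:**
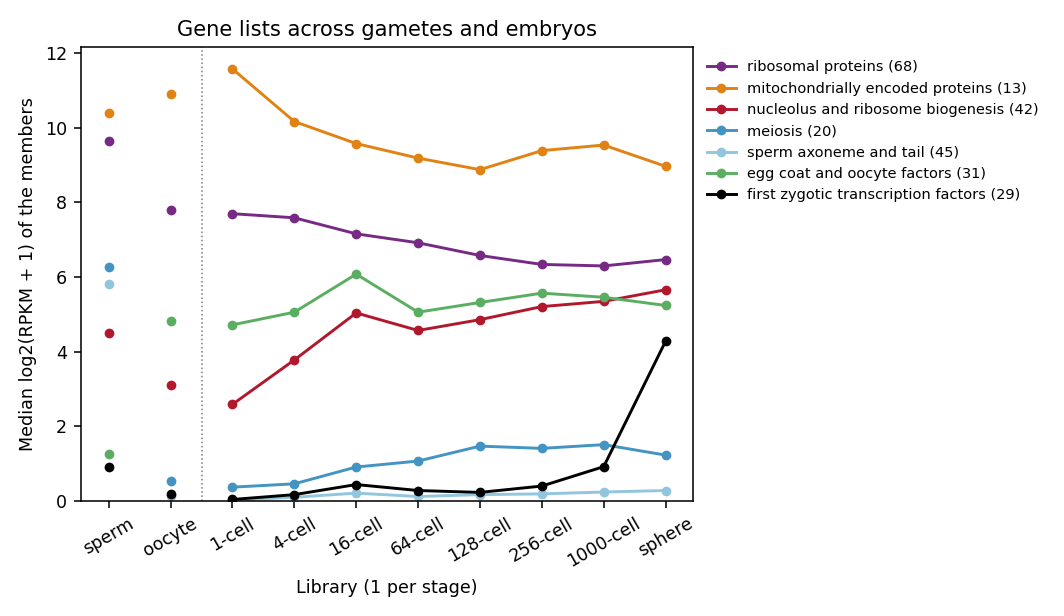
Points give the median log2(RPKM + 1) of the sorted members of 7 lists in the sperm and oocyte libraries and in the 8 embryo libraries (1 library per stage, members in brackets). The nucleolar genes are higher and the ribosomal proteins lower in late than in early embryos, and the sorted first zygotic factors, 16 of 29 of which passed the filter through sphere alone, are low in every library until sphere.

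General transcription machinery, cell cycle genes and chromatin regulators spread over the classes, and their counts are read beside 33.1% above both, 14.9% below both, 26.3% nearer the oocyte and 15.7% nearer sperm among all genes. Of 41 general transcription genes 17 lay above both gametes, 11 nearer sperm, 7 below both, 5 nearer the oocyte and 1 was split. GTF2E1 of TFIIE (79.0 and 79.3 RPKM against 16.8 in sperm and 3.47 in the oocyte), the elongation factor ELL2 and SUPT6H passed 4-fold above both. Of 39 cyclin, kinase and checkpoint genes 10 lay above both, 7 below both, 10 nearer the oocyte, 7 nearer sperm and 5 were split. The retinoblastoma gene RB1 stood 4-fold above both (49.6 and 58.8 RPKM against 6.86 in sperm and 3.15 in the oocyte). Of 21 Polycomb, trithorax and histone methylation genes 9 lay above both and 1 below both, with EZH2 at 41.5 and 49.9 RPKM against 34.1 in sperm and 1.97 in the oocyte. Of 15 histone variant genes 7 were nearer the oocyte and 4 above both.

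Proteasome genes lay mostly below both gametes or nearer the oocyte, and stress genes in all classes. Of 39 proteasome genes 0 lay above both gametes, 17 below both, 15 nearer the oocyte and 6 nearer sperm, with 25 below both under median ratios and 6 when the 1-cell library replaced the oocyte. Among all genes 33.1% lay above both, 14.9% below both and 26.3% nearer the oocyte. Their summed level was 1423 RPKM in 1000-cell and 1610 in sphere, against 4350 in sperm and 1508 in the oocyte. PSME2, an activator of the proteasome used by immune cells, was 4-fold below both, at 0.181 and 0.270 RPKM against 18.2 and 5.16. Of 23 heat shock and stress genes 5 lay above both, 5 below both, 5 nearer the oocyte, 3 nearer sperm and 5 were split. The chaperone gene dnajb1b was 4-fold above both (85.2 and 97.1 RPKM against 20.5 and 19.5), and JUNB, of the AP-1 factor, 4-fold below both (0.219 and 0.702 against 38.6 and 7.38).

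Genes at the edges of the rule had ordinary values. Just inside 5 RPKM lay ssuh2rs1 (5.0005 RPKM in the oocyte) and just outside it rph3al (4.9986 in the oocyte). Just inside a margin of 2 above both gametes was CDK17 (2.003), just outside MAEA (1.997), and below both grna.2 (2.005) lay inside and COQ6 (1.996) outside.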

How the data were processed

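Total RNA isolated with TRIzol was made into TruSeq RNA v2 libraries and sequenced as single reads of 50 bp, per the labels' protocols. The deposited values are RPKM made by the authors, in 1 table with 1 column per library. The submitters' processing notes name TopHat2 2.0.9 and the build Zv9. For the counting tool, annotation, strand setting and reads with several matches, nothing is given in the sources used here, so paralogues and overlapping genes may share reads. Levels were compared as log2(RPKM + 1). Reads were worked back from the steps of the values in 26434 genes, 99.8% of those above 0 in at least 2 libraries, and 99.2% of values above 0 came out whole within 0.02 reads. On simulated data 96.7% of 1500 genes were recovered. How often counting error alone moves a gene from one class to another was not tested. Folds are RPKM ratios with exact 95% Clopper-Pearson intervals, with a floor of 3 reads against a library without reads. No p-value was computed.

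A gene table gave a symbol to 20901 gene IDs, 3270 of which share it with another ID. Genes were named by rule among IDs with a symbol of their own: the 15 with the largest margin above and below both gametes, the 8 nearest each gamete in each direction, the 10 split genes that differed most between the blastula libraries, list members past 4-fold or otherwise the 2 that differed most, and the 5 most abundant of each blastula library. Other list members named are examples chosen after their values were seen. The members and the 23 gene lists were chosen with earlier results of these data known. Alternatives were pseudocounts, filters, scalings, a single blastula library, the 1-cell library for the oocyte, a 2-fold margin and genes with symbols. Promoter motifs were not examined here, and some genes that the rule names are not reported here. Python 3.11.15, numpy 2.4.6, pandas 2.3.3, scipy 1.17.1 and matplotlib 3.10.9 were used.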

Additional observations from a re-analysis of the deposited data

How the results depend on the processing

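Of 736 values of 62 named genes under the alternatives 530 moved by less than the counting error, 195 moved more and 11 reversed, and 95 of 124 counts of genes and 925 of 1092 list counts stayed within 1.5 times. With a pseudocount of 0.1, 344 genes were 4-fold below both gametes. With 5, 234 were 4-fold above both, 57 were 4-fold below both, and of the genes higher in sperm 1128 were nearer the oocyte and 349 nearer sperm. With a filter of 1 RPKM, 3044 genes lay below both and 5481 nearer the oocyte. At 20 RPKM, 2541 lay above both, 1147 below both, 1931 nearer the oocyte and 1165 nearer sperm, with 956 and 534 genes higher in sperm nearer the oocyte and nearer sperm. Without a filter the 4 classes held 6449, 4709, 9333 and 3232 genes. Under median ratio scaling 300 genes were 4-fold below both, 1039 genes higher in sperm were nearer the oocyte and 305 nearer sperm, and 1319 genes higher in the oocyte were nearer it and 1108 nearer sperm. Under equal totals 900 genes were 4-fold above both, and with the sphere library alone 973. With the 1-cell library for the oocyte 1133 genes lay below both and 67 did so by 4-fold. A 2-fold margin left 2002 genes above both, 621 below both, 2292 nearer the oocyte and 937 nearer sperm. Fewer or more genes enter under another filter; the cause of the other shifts was not tested.

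With the 1-cell library for the oocyte the margin below both gametes reversed to a log2 value of -0.27 for lgals2a, -1.93 for icn, -0.10 for GAPDHS, -0.41 for ANXA2, -0.40 for selenop, -1.73 for si:dkey-238c7.13, -0.24 for si:dkey-238c7.12, -0.21 for si:dkey-119g10.4, -0.56 for ARPC1B, -1.24 for CD63 and -0.28 for krt18b. Leaving out genes listed at 0 in either gamete, an alternative chosen after seeing the data, kept each class count within 1.5 times. No paired analysis was possible because each stage has 1 library. With 1 library per stage, differences between stages and between libraries cannot be told apart.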
